A study of Mus musculus with 912 samples.

Results

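The 44 genes described here encode synaptic adhesion proteins, and they were chosen by name from their families, with earlier results of these data known. They cover neurexins (Nrxn2, Nrxn3), receptor phosphatases of the LAR type (Ptprd, Ptprs, Ptprf), neuroligins, LRRTMs, calsyntenins, SLITRKs, SALMs (the Lrfn genes), IL-1 receptor accessory proteins (Il1rap, Il1rapl1), FLRTs, teneurins, the secreted LGIs with their receptors Adam22 and Adam23, and SynCAMs (the Cadm genes). All 44 were found by symbol among the 42772 genes with a count. A second list holds 30 further genes of trans-synaptic adhesion that are not members, such as latrophilins and complement-related ligands, and it is called the partner list below.

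Adhesion proteins of the synapse bind across the cleft and join the presynaptic terminal to the postsynaptic membrane. Neurexins and LAR-type phosphatases sit mainly on the axon side and pair with neuroligins, LRRTMs, SLITRKs, SALMs and other proteins on the dendrite side. LGI proteins are secreted and bridge the membranes through ADAM22 and ADAM23, while teneurins bind latrophilins and each other. In the hippocampus such proteins are known for their part in the choice of partner cells and in the strength of excitatory and inhibitory synapses.

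Single nuclei were sorted from the hippocampus of female C57BL/6 mice, and each was made into its own SmartSeq2 library, 912 in all. The first cohort of 360 nuclei came from 7 mice in the home cage (HC) and 6 mice that were put briefly into a new environment (NE) and taken 1 h later, and its nuclei were stained for NEUN, PROX1, CTIP2 and FOS and carry predicted cell types (DG, CA1, CA3, Sub, VIP, Ivy, Pvalb and Th). The later cohort of 552 nuclei consisted of DG nuclei sorted for PROX1 and for ARC, and it was taken at 4 h (2 mice) or 5 h (4 mice) after NE exposure, all FOS-, or 1 h after a second exposure. In the second exposure mice that had been in context A and then 4 h in the home cage went back to A (A>A, 6 mice with FOS+ and 6 with FOS- nuclei, 4 of them in both) or into context C (A>C, 2 mice each). HC mice were FOS- only, and FOS- nuclei of the HC and 1 h groups with an Arc level above 2.5 were left out. Ages ran from 7.75 to 9.0 weeks in the first cohort and over the same figures in the later one, where the labels give no unit. FOS- nuclei of A>A and A>C were ARC+, so they are not unexposed nuclei.

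Of the 912 nuclei, 818 passed the thresholds of 100000 aligned reads and 4000 detected genes, and 783 were kept after the Arc filter. The median total count per nucleus was 979780 in HC DG nuclei, 1378220 in FOS- and 1462217 in FOS+ DG nuclei at 1 h, 2469299 at 4 h and 426841 at 5 h. Levels are mean log2(TPM+1) over the nuclei of 1 mouse, a scale that accounts for transcript length, and a nucleus counts as detecting a gene above a value of 1. Tests used counts summed per mouse. CPM is the count scaled to the library total, with TMM factors where a group's value stands in a test and without them for single sums and for markers. Values of these kinds should not be set against each other, and a gene was called at an adjusted p under 0.05 over all genes tested in edgeR. A sum over nuclei does not tell fewer expressing nuclei from less RNA per nucleus, so the share of nuclei that detected a gene is given with the levels of the main genes.

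The labels were first compared with markers. Prox1, the granule cell transcription factor, had a mean level of 5.26 in DG and 0.11 in CA1, and Slc17a7, the vesicular glutamate transporter of hippocampal principal cells, lay between 6.90 and 7.34 in DG, CA1, CA3 and Sub. Vip had a mean of 7.00 in VIP nuclei but was at 0 in 2 of the 6 VIP sums, each of 2 nuclei, which held Gad2 at 7.74 and 9.35. Sub nuclei were weakly marked, with Fn1 at 5.18 against 4.84 in CA1 and Tle4 at 0.95 against 1.79 in DG. A CA1 sum, from 4 nuclei of HC mouse 4, held the oligodendrocyte markers Mobp at 167 CPM and Mog at 195 CPM, where each of the other FOS- CA1 sums held Mobp at 0.445 to 11.3 CPM and Mog at 0 to 11.1 CPM. The rest of the oligodendrocyte list stood far higher in that sum, so Mobp and Mog understate this signal. Its astrocyte list summed to 322 CPM, against 1.15 to 163 CPM in the other FOS- CA1 sums. The FOS+ CA1 sum of 1 h mouse 4, from 4 nuclei, held the CA1 markers at 4.8 CPM in all (Fibcd1 4.42, Pou3f1 at 0), the CA3 markers at 77.4 CPM (Bok 71.2) and the microglial Csf1r at 117 CPM, which goes against its label, whereas the FOS- CA1 sum of that mouse held the CA1 markers at 238 CPM (Wfs1 237). Nuclei labelled Th held Slc17a6 at 6.53, with Gad1 at 0.36 and Gad2 at 0.00, so GABAergic markers did not go with that label. Nrxn3, Tenm4 and Ptprd are among the genes the study used to assign cell types, so differences of these genes between types are in part set by the labels.

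Across FOS- nuclei, Lgi1 had the highest mean level of the members in DG, and Nrxn3 in both CA1 and VIP. In DG (3 mice with at least 2 nuclei) the highest member was Lgi1, the secreted epilepsy-linked ligand of ADAM22, at 7.80 ± 1.03 (SD), followed by the SynCAM Cadm1 at 6.99 ± 1.12, Ptprd at 6.86 ± 1.19 and the teneurin Tenm1 at 6.81 ± 0.34. In CA1 (6 mice) Nrxn3 led with 7.57 ± 1.82, before Cadm1 (7.27 ± 2.18), Ptprd (6.93 ± 1.72) and Adam22 (6.92 ± 0.74). VIP nuclei (6 mice) had Nrxn3 at 11.08 ± 0.29, followed by Cadm1 (7.53 ± 1.73), Adam22 (7.29 ± 1.45) and Tenm1 (6.71 ± 1.05). Within DG and within CA1 neighbours in this order lay closer together than their SDs over mice, so the order of neighbours is not resolved. Nrxn3 in VIP, by contrast, stood over 3 log2 units above the next gene.

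**Figure D1:**
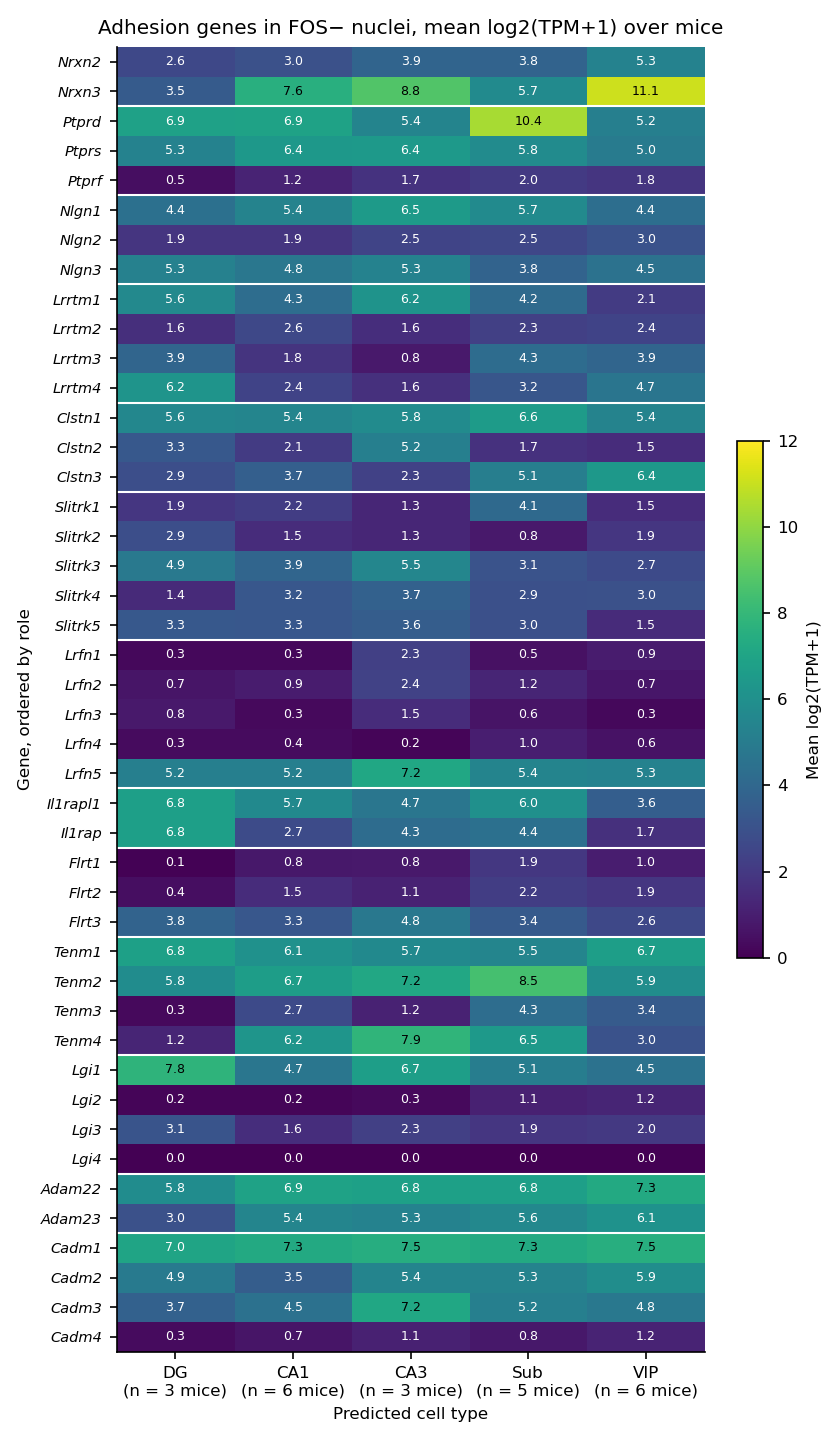
Mean log2(TPM+1) of the 44 members in FOS- nuclei of DG (3 mice), CA1 (6), CA3 (3), Sub (5) and VIP (6), with genes in rows by family and cell types in columns. Nrxn3 in VIP (11.08) and Ptprd in Sub (10.41) are the brightest cells, and Lgi4 is at 0.00 in each column.

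Further members were picked for description after their levels were seen. Cadm1, Adam22, Tenm1, Tenm2 and Ptprs formed a broad set, with means between 4.98 and 8.46 in each of DG, CA1, CA3, Sub and VIP. Tenm1 was detected in 52 of 52 DG, 40 of 40 CA1 and 39 of 39 VIP nuclei. At the other end, Lgi4 was the only member with a mean under 0.5 in all 8 types. The SALMs split, since Lrfn1, Lrfn2, Lrfn3 and Lrfn4 did not exceed a mean of 2.39 in any type while Lrfn5 lay between 5.18 and 7.16 in DG, CA1, CA3, Sub and VIP. Neuroligins split as well. Nlgn1, a neuroligin of excitatory synapses, averaged 5.35 in CA1 and 4.36 in VIP, and Nlgn2, the neuroligin of inhibitory synapses, 1.86 and 3.00.

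Among the cell types given here, Il1rap and Lrrtm4 had their highest mean in DG. Il1rap, a postsynaptic partner of the LAR-type phosphatases, had levels of 6.43 to 7.15 over the DG mice, 0.25 to 4.84 over the CA1 mice and 0.52 to 3.85 over the VIP mice, and it was detected in 90.4% of DG, 45.0% of CA1 and 33.3% of VIP nuclei. The DG mice did not overlap either group, lying above CA1 as 4 of 43 members and 1.69% of genes did, and above VIP as 5 of 43 members and 4.18% of genes did. Such shares are over genes with a mean level above 0.1 in the mice compared. edgeR did not call Il1rap in these comparisons. limma called Il1rap higher and Nrxn3 lower in DG than in VIP, and did not call Tenm4 there. Lrrtm4, a postsynaptic protein that binds heparan sulfate proteoglycans, averaged 6.19 ± 1.02 in DG, 4.66 ± 1.81 in VIP, 2.42 ± 1.54 in CA1 and 1.64 ± 2.45 in CA3. Its detection fell in the same order, from 84.6% of DG nuclei through 61.5% and 27.5% to 23.1% of CA3 nuclei. DG and VIP overlapped in Lrrtm4, as did VIP and CA1, so neighbours in that order were not separated.

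**Figure D2:**
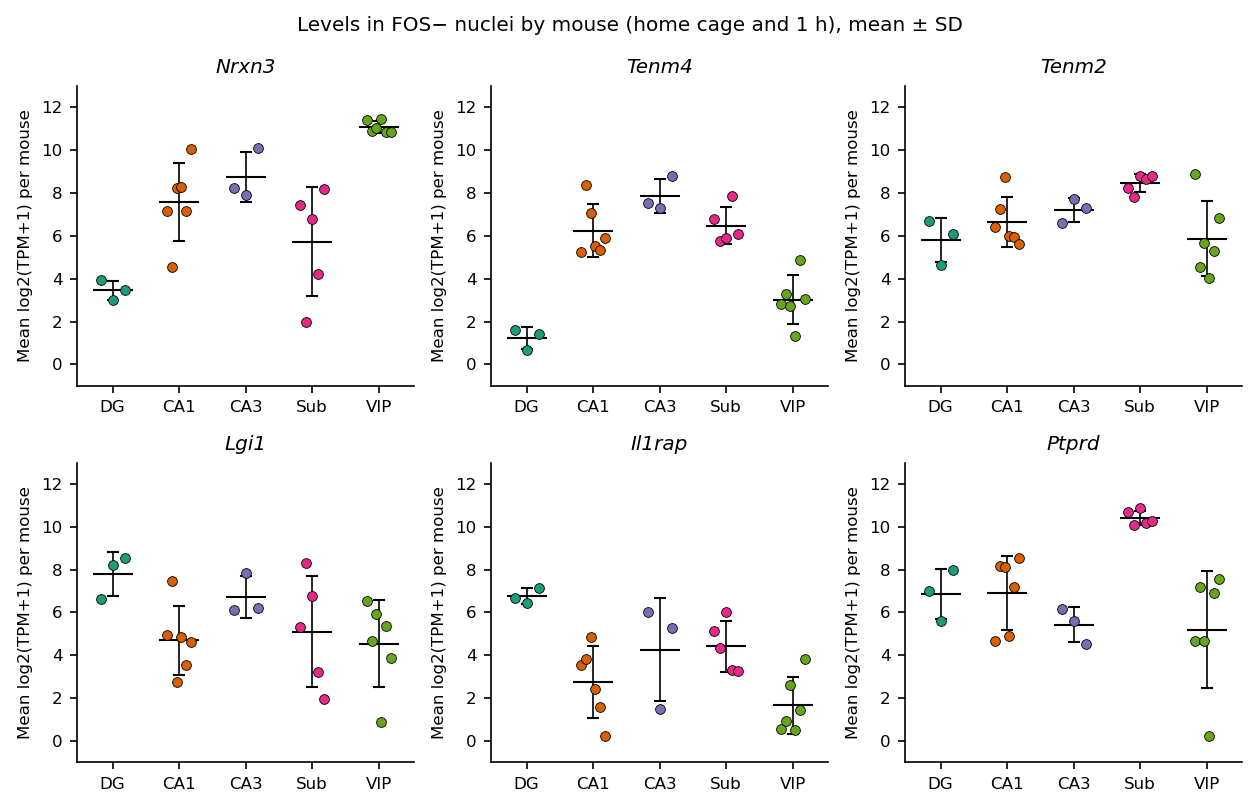
Mean log2(TPM+1) per mouse of Nrxn3, Tenm4, Tenm2, Lgi1, Il1rap and Ptprd in FOS- nuclei by cell type, with points for mice of at least 2 nuclei and bars for mean ± SD. In Nrxn3 the VIP mice (10.83 to 11.48) lie above all DG, CA1, CA3 and Sub mice, and in Tenm4 the DG mice (0.66 to 1.62) lie below all CA1 mice (5.24 to 8.37).

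The comparison of DG with CA1 asks how granule cells differ from CA1 pyramidal cells when neither was FOS+. Of the 43 members tested, 1 was called, where 28 of 16709 genes (0.168%) were called in all, 11 (0.0658%) as higher and 17 (0.102%) as lower. That member was Tenm4, a teneurin, with levels of 0.66 and 1.44 in the 2 HC mice and 1.62 in the 1 h mouse of DG. The 6 CA1 mice had 5.24, 5.32, 5.54, 5.91, 7.09 and 8.37, so the groups did not overlap, and DG lay below CA1 in this way for 4 of 43 members and 4.00% of genes. Tenm4 was at 23.7 CPM in DG and 344 CPM in CA1, a log2 difference of -3.86 (SE 0.75, adjusted p = 0.031), and 26.9% of DG against 85.0% of CA1 nuclei detected it. Since Tenm4 helped to assign the labels, its difference and p-value are a description and not an independent test. Next by p were Adam23, at 2.59 to 3.32 in DG and 2.35 to 7.58 in CA1 (log2 difference -2.18, SE 0.72, adjusted p = 0.37), and Tenm3, at 0.00 to 0.46 and 0.51 to 3.90 (-4.42, SE 1.79, adjusted p = 0.56). Without the CA1 sum that held oligodendrocyte markers, Tenm4 had an adjusted p of 0.0099. The call was lost without any 1 of the 1 h mice 2, 3, 4 and 10 or the HC mice 6, 7 and 8 (adjusted p up to 0.18), when sums needed 5 nuclei, and when nuclei were grouped by the sorting gate. Grouping by gate also left out the nuclei negative for both PROX1 and CTIP2, and 1 of 17704 genes was called in it. The DG and CA1 sums in this test shared no date code, so cell type and processing date cannot be told apart in it.

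VIP interneurons were then set against CA1 and DG. Nrxn3 had levels between 10.83 and 11.48 in the 6 VIP mice and was detected in 39 of 39 VIP nuclei. CA1 mice lay between 4.53 and 10.05 and the DG mice at 3.02, 3.46 and 3.92, so VIP overlapped neither group. All DG mice lay below all VIP mice for 5 of 43 members, Nrxn3 among them, and 2.76% of genes. Every VIP mouse lay above every CA1 mouse for 1 of 43 members, Nrxn3, and 0.490% of genes, and below every CA1 mouse for 1 member, Tenm4, and 1.10% of genes. limma called Tenm4 lower in VIP than in CA1, which edgeR did not. Of 43 members, Nrxn3 was the 1 called against CA1 (2685 against 522 CPM, log2 difference 2.40, SE 0.48, adjusted p = 0.020), where 108 of 16709 genes (0.646%) were called and 42 (0.251%) were higher in VIP. Against VIP, DG had 2 members called lower, where 119 genes (0.712%) were called and 34 (0.203%) were lower. These were Nrxn3 (201 against 2685 CPM, log2 difference -3.78, SE 0.68, adjusted p = 0.0065) and Tenm4 (23.7 against 204 CPM, -3.11, SE 0.72, adjusted p = 0.048). Both genes helped to assign the labels, so their differences and p-values between types are a description and not an independent test. The VIP levels of Tenm4, 1.33 to 4.87, overlapped those of DG, and it was still called in 1 leave-one-out fit, that without the HC mouse 4 whose CA1 nuclei held oligodendrocyte markers. The Nrxn3 call against CA1 was lost without 1 h mouse 2, 1 h mouse 10 or that HC mouse 4, and the call between DG and VIP without 1 h mouse 3, HC mouse 6 or HC mouse 7. The DG and VIP sums shared no date code either, so cell type and date cannot be told apart between them.

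Cadm2 and Lrfn5 followed Nrxn3 by p in VIP against CA1 but were not called by edgeR, while DESeq2 called Cadm2. Cadm2, a SynCAM, lay at 3.78 to 7.88 in VIP and 1.02 to 5.58 in CA1 (log2 difference 1.69, SE 0.61, adjusted p = 0.21). Lrfn5 lay at 3.48 to 6.64 and 2.99 to 6.37 (1.15, SE 0.48, adjusted p = 0.29), an almost complete overlap. Adam23, next in DG against VIP, lay at 4.40 to 7.73 in VIP (log2 difference of DG to VIP -2.65, SE 0.74, adjusted p = 0.11). Without the 2 VIP sums that lacked Vip, Nrxn3 was still called against CA1 (2.39, adjusted p = 0.043) and against DG (-3.76, adjusted p = 0.018). The VIP sums left in that fit shared no date code with CA1, so cell type and date cannot be told apart in it. By sorting gate the Nrxn3 difference to CA1 was 1.51 (adjusted p = 0.24), and that to DG was -3.32 (adjusted p = 0.0097). That setting also leaves out the nuclei negative for both PROX1 and CTIP2. It called 0 of 17704 genes in VIP against CA1 and 42 in DG against VIP.

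Over the members as a whole, log2 differences were spread around the background. Their median was 0.24 in DG against CA1 (all genes tested -0.07), 0.23 in VIP against CA1 (-0.10) and -0.10 in DG against VIP (0.04). Over the alternative settings these medians ran from -0.01 to 0.37, from 0.17 to 0.70 and from -0.41 to 0.02, so the sign turned in the first (limma) and the third (no filter on low counts). At an unadjusted p under 0.05 there were 7 of 43 members (16.3%), 5 (11.6%) and 8 (18.6%), against 7.83%, 13.4% and 12.5% of all genes.

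CA3 and subicular nuclei came from mice that also gave CA1 nuclei. In CA3 against CA1, edgeR called 0 of 43 members and 0 of 16709 genes (0%). Unadjusted, 1057 genes (6.33%) and 2 members had p under 0.05. DESeq2 called 390 genes and 1 member (Lrrtm4, lower), and limma 129 genes, 126 of them higher and 3 lower, and 1 member (Clstn2, higher). Lrrtm4 was at 0.00, 0.46 and 4.46 in the CA3 mice, the highest of them a sum of 2 nuclei, and at 0.00 to 4.86 in CA1 (4.15 against 89.7 CPM, edgeR log2 difference -5.09, SE 2.10, adjusted p = 0.77). Lrfn1 was at 1.02 to 3.15 in CA3 and 0.00 to 0.88 in CA1 (20.8 against 0.743 CPM, 4.55, SE 2.02, adjusted p = 0.78). Cadm3, a SynCAM, was at 6.61 to 7.68 against 3.75 to 6.39 (1.23, SE 0.63, adjusted p = 0.79), and Clstn2, a calsyntenin, at 4.29 to 5.77 against 1.13 to 3.18. All 3 CA3 mice lay above all 6 CA1 mice in 4 of 43 members (Lrfn1, Lrfn5, Cadm3 and Clstn2) and 2.56% of genes, and below them in 0 members and 0.630% of genes.

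The subiculum label went with the highest Ptprd. Its 5 mice had 10.09, 10.16, 10.26, 10.70 and 10.86, against 4.67 to 8.54 in CA1, and 22 of 22 Sub nuclei detected the gene. The groups did not overlap, with Sub above CA1 in 1 of 43 members, Ptprd, and 0.340% of genes, yet edgeR gave a log2 difference of 1.78 (1658 against 485 CPM, SE 0.76, adjusted p = 0.43), and since Ptprd helped to assign the label its level here is a description. Lrrtm3, a postsynaptic LRRTM, was at 2.65 to 5.84 in Sub and 0.32 to 3.76 in CA1 (2.93, SE 1.15, adjusted p = 0.39), and Tenm2, the teneurin that binds latrophilins, at 7.82 to 8.81 against 5.62 to 8.74 (0.92, SE 0.39, adjusted p = 0.43). None of the 43 members was called, where edgeR called 2 genes (0.0120%), 1 in each direction (0.00598%), and 0 with a replicate block for the mouse. Without HC mouse 4 it called 4 genes, and without any 1 of the other mice 0 or 1. Unadjusted, 1673 genes (10.0%) and 3 members had p under 0.05. DESeq2 called 532 genes and limma 29, and 0 members in each.

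From the partner list, 27 genes were tested between cell types. Gpc4, a glypican and ligand of Lrrtm4, had 4102, 4970 and 225 counts in the 3 DG sums (104.9, 227 and 51.0 CPM) and 1 count in all 6 VIP sums, and it was detected in 45 of 52 DG and 0 of 39 VIP nuclei. edgeR called it in DG against VIP (adjusted p = 0.014) and in VIP against CA1 (0.0578 against 41.2 CPM, adjusted p = 0.037). C1ql3, a secreted C1q-like protein, was at 168, 211 and 244 CPM in DG, at 0 in 5 VIP sums and at 9.27 CPM in the sixth (adjusted p = 0.038). Without the 2 VIP sums that lacked Vip, the calls of Gpc4 and C1ql3 were lost. Cell type and date cannot be told apart for the DG values here either. Other partners were not called in these comparisons.

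In DG nuclei 1 h after NE exposure, Lgi3 was the member that edgeR called between the FOS+ and the FOS- sum of a single mouse. Lgi3 (ENSMUSG00000033595, GRCm38 chromosome 14, 70530685 to 70538324, plus strand) encodes a secreted member of the LGI family. Its level was 3.00 and 3.45 in the 2 HC mice, where 10 of 18 and 3 of 5 nuclei detected it. In mouse 3, the only 1 h mouse with DG nuclei, it was 2.89 in FOS- nuclei (10 of 27 detected) and 0.03 in FOS+ nuclei (0 of 26, which allows a share of up to 11.5%). Before scaling, the sums stood at 205 CPM in FOS- and 0.0568 CPM in FOS+ nuclei, a 3601-fold ratio with an exact 95% interval of 997 to 29742. That interval covers only the counting error of reads taken as independent. Reads include PCR copies, so it is too narrow for RNA molecules, nuclei or mice.

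edgeR called Lgi3 in FOS+ against FOS- nuclei (0.0600 against 176 CPM, adjusted p = 0.037) and against HC (117 CPM, adjusted p = 0.014). It was the 1 member called of 44 in each. In the first comparison 11 of 24405 genes (0.0451%) were called and 3 (0.0123%) as lower, and in the second 66 (0.270%) and 7 (0.0287%). The FOS+ and FOS- nuclei come from 1 mouse and 1 date code, so the spread was that of the other DG groups, and both calls use the same FOS+ sum. The HC sums carry another date code than mouse 3, so exposure and date cannot be told apart against HC. There the genes called numbered 168 without HC mouse 6 and 21 without HC mouse 7, and Lgi3 was among them in both fits. Neither call held with the HC and 1 h groups alone, where no gene was called. The FOS+ against FOS- call was also lost with a replicate block for the mouse, where no gene was called, and in limma on the per-mouse levels (-2.87).

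**Figure D3:**
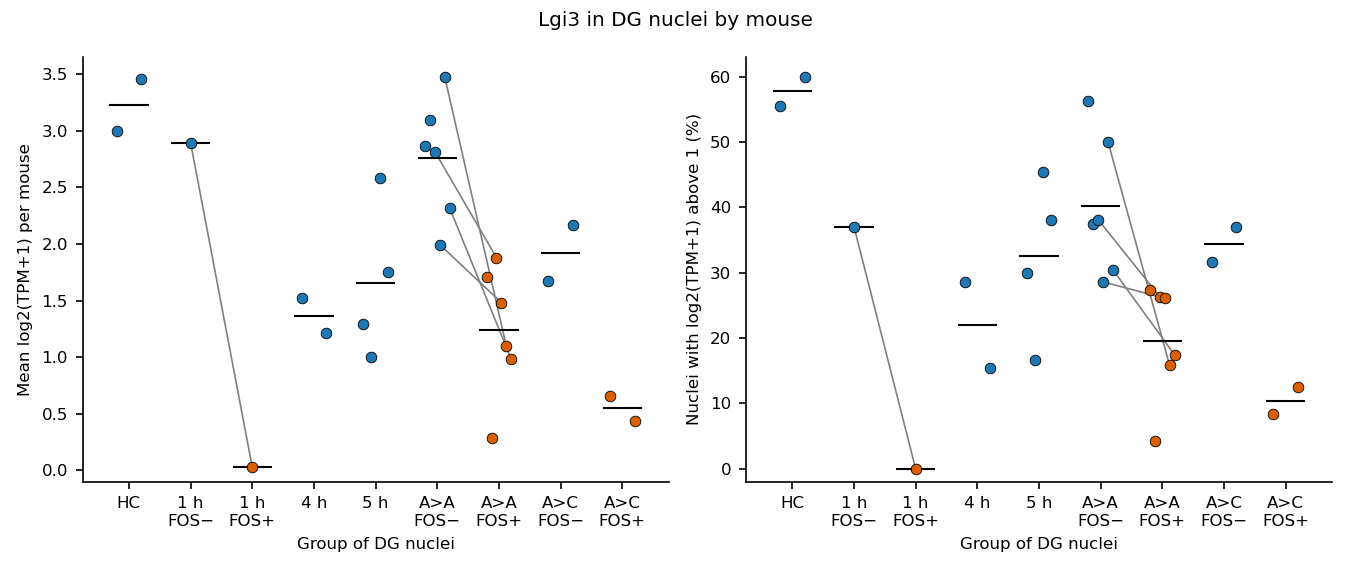
Lgi3 in DG nuclei per mouse over the HC, 1 h, 4 h, 5 h, A>A and A>C groups, as mean log2(TPM+1) and as the percentage of nuclei above a value of 1, with lines joining FOS- and FOS+ nuclei of the same mouse. The FOS+ points at 1 h (0.03), in A>A (0.29 to 1.88) and in A>C (0.44 and 0.66) lie below the FOS- points of their groups.

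Markers also differed between these nuclei. Among the DG markers, Prox1 was at 6.50 in FOS+ and 5.15 in FOS- nuclei, Dsp at 0.29 and 0.93, and C1ql2, a partner gene as well, at 2.11 and 6.79. The GABAergic list summed to 620 CPM in FOS+ and 249 CPM in FOS- nuclei, nearly all of it Gad1 (619 and 249 CPM), with Slc32a1 at 0 in both. Slc17a7 was at 356 CPM in FOS+ and 654 CPM in FOS- nuclei. The median number of detected genes was 5195 in FOS+ and 6209 in FOS- nuclei, against 5660 in HC. The part of these differences in the Lgi3 result was not tested.

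Next by p in FOS+ against FOS- nuclei were Tenm2 and Clstn1, a calsyntenin that links transport vesicles to kinesin. Tenm2 was at 6.69 in FOS- and 3.34 in FOS+ nuclei of mouse 3 (417 against 122 CPM, log2 difference -1.77, SE 0.62) and at 4.66 and 6.10 in the HC mice. Clstn1 was at 5.39 and 2.25 (335 against 84.9 CPM, -1.98, SE 0.81) and at 4.93 and 6.36 in HC. FOS+ values were thus the lowest of these 4 for each gene, but neither was called by edgeR (adjusted p = 1). DESeq2 called Tenm2 in FOS+ against FOS- nuclei, and limma called Clstn1 in FOS+ nuclei against HC.

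The other members ran on either side of 0. In limma on the per-mouse levels the member median against FOS- nuclei was -0.73, where that of all genes was -0.18. Against FOS- nuclei 16 members had a log2 difference above 0 and 26 below (median -0.25, or -0.40 with members at 0 counts set to a floor of 3 counts over the group, against 0 for all genes), and 3 of 44 (6.82%) had an unadjusted p under 0.05, where 3.02% of genes did. Against HC, 18 lay above and 25 below (median -0.28, or -0.51 with DESeq2's size factors), and 6 of 44 (13.6%) had an unadjusted p under 0.05, where 5.90% of genes did. There Slitrk3, a SLITRK of inhibitory synapses, was at 5.24 in FOS+ nuclei and at 2.94 and 6.85 in HC (610 against 177 CPM, 1.78, SE 0.53, adjusted p = 0.36), so the FOS+ value fell between the HC mice on the level scale. Nlgn2 was at 3.20 against 1.81 and 1.40 (93.1 against 17.5 CPM, 2.40, SE 0.91, adjusted p = 0.62).

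**Figure D4:**
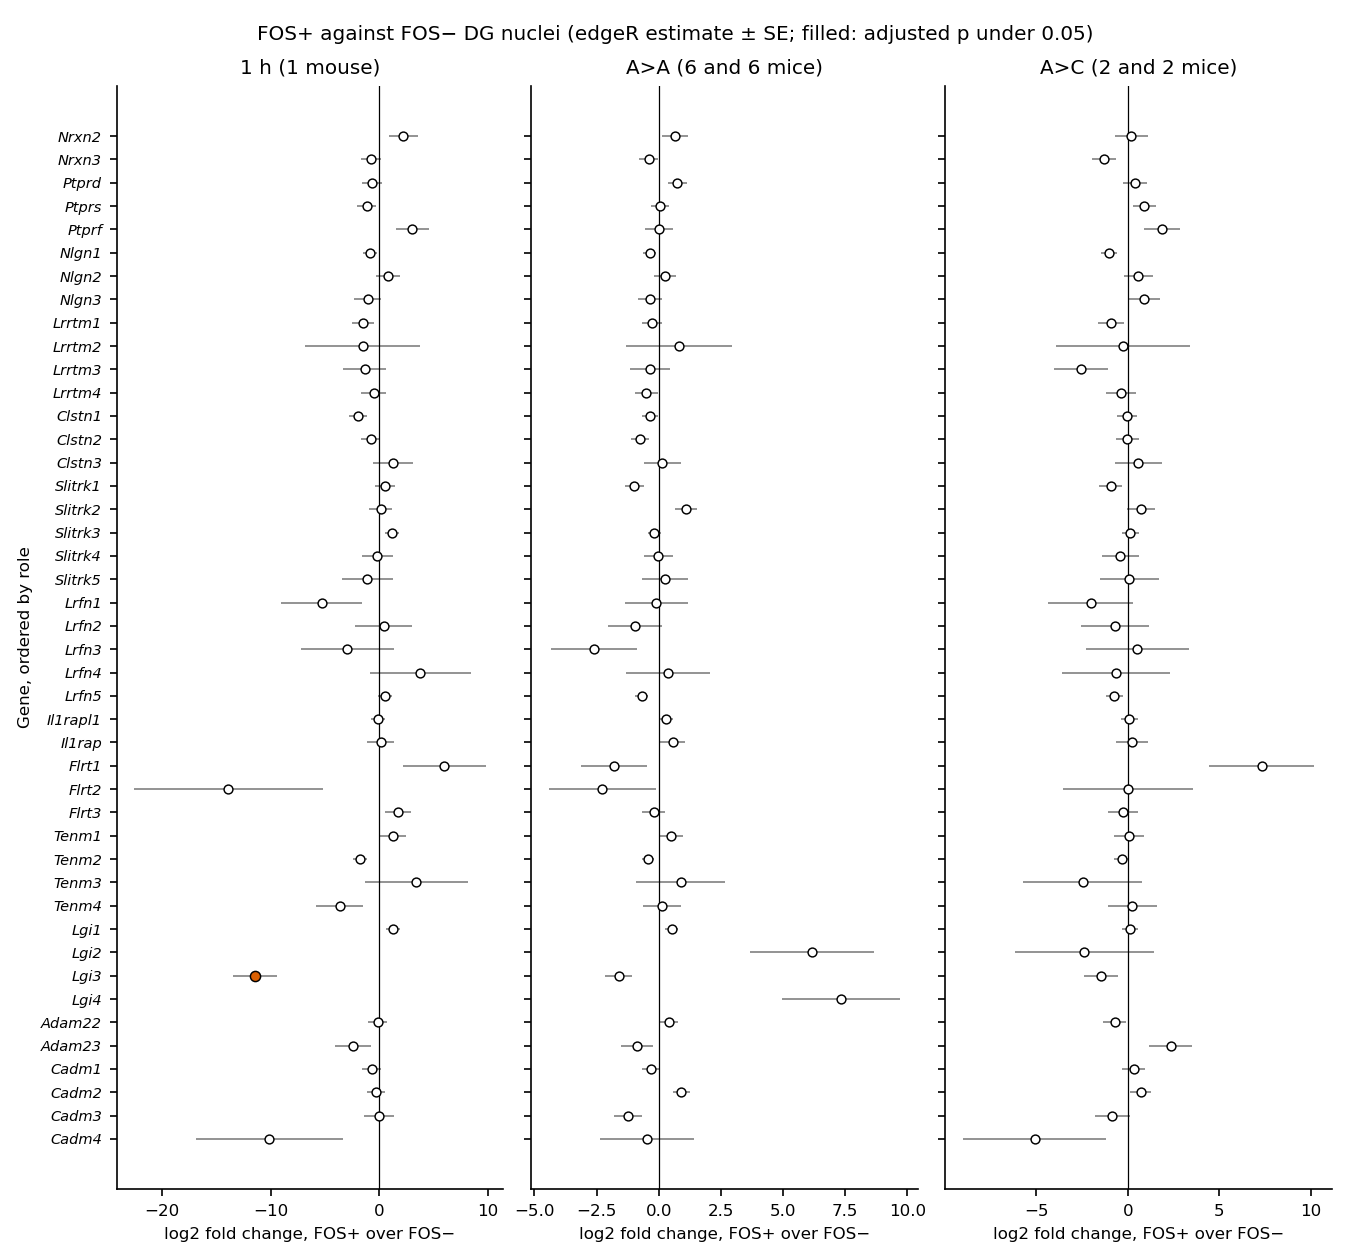
edgeR log2 difference ± SE of the members between FOS+ and FOS- DG nuclei at 1 h, in A>A and in A>C, with genes in rows filled points for an adjusted p under 0.05 and a scale of its own for each panel. The filled point is Lgi3 at 1 h, and estimates of members with few or no counts in a group, such as Flrt2 and Cadm4 at 1 h, depend on the prior count.

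FOS- nuclei at 1 h were also set against HC nuclei. The members had a median log2 difference of 0.35 (0.41 with members at 0 counts at the floor), 29 above 0 and 14 below, against a median of 0 for all genes. With DESeq2's size factors the member median was 0.16. Of 44 members 0 were called by edgeR, where 1 gene (0.00410%) was called and 683 (2.80%), with 1 member, had an unadjusted p under 0.05. The genes called numbered 61 without HC mouse 6 and 0 without HC mouse 7, with 0 members in each, and exposure and date cannot be told apart here. DESeq2 called 616 genes and limma 93, and 0 members in each. The 3 members lowest in p were Tenm2 (6.69 against 4.66 and 6.10, log2 difference 1.33, SE 0.51), Lgi1 (6.62 against 8.21 and 8.55, -1.05, SE 0.55) and Nlgn2 (2.37 against 1.81 and 1.40, 1.64, SE 0.91), all with an adjusted p of 1.

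The 4 h and 5 h nuclei were ARC+ and FOS- and came from the later cohort, so time, the ARC sort and the cohort cannot be told apart in their comparison with HC. edgeR called 0 of 44 members at either time, where it called 60 genes (0.246%) at 4 h and 64 (0.262%) at 5 h. These numbers rested on the HC mice, since they were 180 and 204 without HC mouse 6 and 17 and 20 without HC mouse 7. At 4 h they were 34 without mouse 17 and 30 without mouse 21. The members called stayed at 0 in these fits. At an unadjusted p under 0.05 there were 6 members (13.6%) at 4 h and 8 (18.2%) at 5 h, against 5.58% and 10.3% of all genes. At 4 h DESeq2 called 1011 genes (4.14%) and 0 members, and limma 654 genes (0.740% higher and 2.96% lower) and 4 members, all lower. At 5 h DESeq2 called 1987 genes (8.14%) and 4 members, all higher, and limma 1868 genes (0.865% higher and 9.69% lower) and 12 members, 1 higher and 11 lower. The median over the members was 0.17 at 4 h, where that of all genes was 0.23, but its sign turned with DESeq2's size factors (-0.17) and in limma (-0.30). It was -0.40 at 5 h, where that of all genes was 0. Over the alternative settings the 5 h median ran from -0.60 in limma (all genes -0.13) to -0.24 with all nuclei (all genes 0.12).

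Slitrk3 was the member lowest in p at 4 h. It stood at 6.20 and 6.04 at 4 h, at 4.81, 5.39, 6.07 and 5.58 at 5 h and at 2.94 and 6.85 in HC. The HC mice enclosed all later values, although the sums gave 522 CPM at 4 h, 436 at 5 h and 177 in HC (log2 differences 1.56, SE 0.46, adjusted p = 0.36 and 1.30, SE 0.42, adjusted p = 0.28). Lrfn5 was at 7.22 and 6.08 at 4 h against 4.83 and 4.76 in HC, without overlap, as in 8 of 42 members and 17.5% of genes that lay above HC at 4 h (525 against 199 CPM, 1.40, SE 0.47, adjusted p = 0.55). At 5 h Lrfn5 was at 4.72, 3.87, 5.54 and 5.50, on either side of HC.

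Ptprf, the low-level member of the LAR-type phosphatases, was at 0.46 and 0.50 in HC, 1.10 and 0.93 at 4 h and 1.47, 1.23, 0.85 and 1.52 at 5 h. Every later mouse lay above both HC mice, at 5 h in 2 of 42 members and 4.88% of genes, and 2 of 18 and 1 of 5 HC nuclei detected it. The sums gave 7.30 CPM in HC, 50.6 at 4 h (2.80, SE 1.04, adjusted p = 0.68) and 84.0 at 5 h (3.53, SE 1.02, adjusted p = 0.21). Nlgn1 was at 3.55, 3.29, 4.11 and 4.50 at 5 h and at 4.28 and 4.08 in HC, overlapping, with 404 against 171 CPM (1.24, SE 0.41, adjusted p = 0.29). For Nlgn1 the sign differed by scale, since limma on the levels gave -0.31.

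Lgi3 at these times lay below the HC mice, at 1.52 and 1.21 at 4 h and 1.29, 1.00, 2.58 and 1.76 at 5 h against 3.00 and 3.45. Every mouse lay below both HC mice in 18 of 42 members and 22.0% of genes at 4 h, and in 12 of 42 members and 15.9% of genes at 5 h. The DG marker list also summed to less than in the HC mice, to 597 and 691 CPM at 4 h and 488 to 692 CPM at 5 h against 988 and 1130 CPM, with Prox1 the most abundant in each sum. Its part in these values was not tested. Tenm2 lay at 4.28 and 3.47 at 4 h and 4.70 to 5.85 at 5 h, the latter within the HC range. Clstn1 was at 1.70 and 2.75 at 4 h and at 1.50, 3.67, 1.79 and 2.21 at 5 h, below both HC mice (4.93 and 6.36). Lgi1 was near its HC level at 4 h (7.95 and 8.11) and lower at 5 h, where mice 22 and 23 (4.79 and 2.34, from sums of 10 and 6 nuclei) stood below mice 8 and 9 (7.14 and 7.00). The glutamatergic list stood apart in mice 22 and 23 as well, at 140 CPM (Slc17a6 105) and 45.9 CPM against 526 and 547 CPM in mice 8 and 9, and its part was not tested. Mice 22 and 23 shared a date code that mice 8 and 9 did not have. Their median count per nucleus was 1776118 and 1555742, against 381170 and 350943 in mice 8 and 9. The part of date and depth was not tested either. None of these members was called by edgeR, but limma called Clstn1 as lower at 4 h and Clstn1, Lgi1 and Lgi3 as lower at 5 h.

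**Figure D5:**
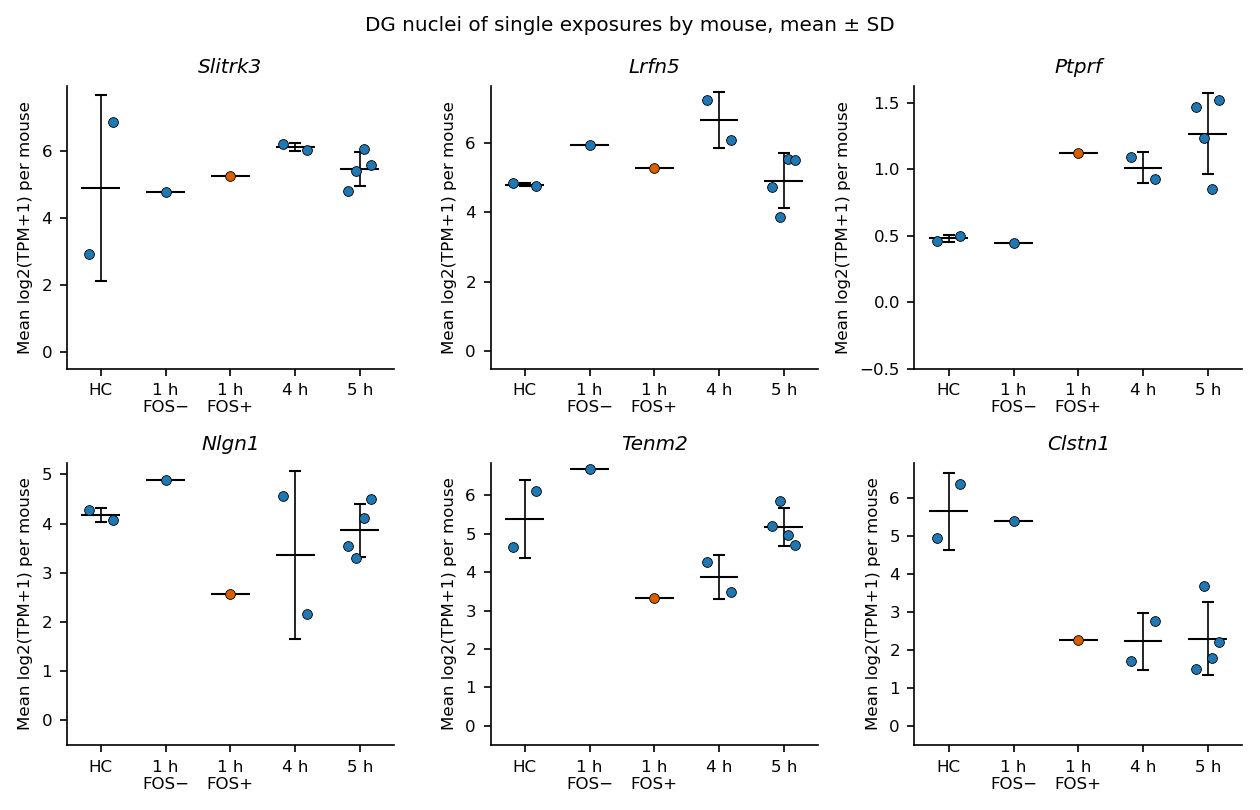
Mean log2(TPM+1) per mouse of Slitrk3, Lrfn5, Ptprf, Nlgn1, Tenm2 and Clstn1 in DG nuclei of the HC group, the FOS- and FOS+ nuclei at 1 h, and the 4 h and the 5 h group, 1 point per mouse, with lines and bars for mean ± SD. In Ptprf all 4 h and 5 h mice (0.85 to 1.52) lie above the HC mice (0.46 and 0.50), and in Slitrk3 they lie between the HC mice (2.94 and 6.85).

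Among the partners, Adgrl3, the latrophilin that binds FLRTs and teneurins, was called as higher at both times. It had 88.5 and 217 CPM in the HC sums, 48.3 in FOS- and 863 in FOS+ nuclei at 1 h, 1860 and 1627 at 4 h and 823, 1726, 1746 and 2147 at 5 h. The log2 difference to HC was 3.77 (SE 0.72, adjusted p = 0.023) at 4 h and 3.44 (SE 0.67, adjusted p = 0.033) at 5 h, and it was the 1 of 28 partners called at each time. Both use the same 2 HC mice. The 4 h call was lost with DESeq2's size factors and without any 1 of the mice, and the 5 h call without the Arc filter and without mouse 22 or either HC mouse.

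Re-exposure to context A compared FOS+ with FOS- nuclei that were all ARC+. Of 44 members edgeR called 0, where it called 10 of 24405 genes (0.0410%), 6 (0.0246%) as higher and 4 (0.0164%) as lower. With a replicate block for the mouse it called 0 genes, and without any 1 mouse 1 to 8, the 1 without mouse 25, 26 or 27. It called 36 genes (19 higher and 17 lower) with all nuclei. With mice that span more than 1 date code split by code it called 18. Unadjusted, 9 members (20.5%) and 3762 genes (15.4%) had p under 0.05. DESeq2 called 878 genes, with Lgi2 and Lgi3 among the members, and limma 281 genes, with Lgi3 and Ptprd. The median of the members was -0.14, against -0.02 for all genes. Over the alternative settings it ran from -0.27 (mouse block) to -0.05 (the mice with both FOS groups alone).

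Lgi3 was the member lowest in p here as well. Its level was 1.99, 2.32, 2.82, 2.87, 3.09 and 3.48 in the 6 mice with FOS- nuclei and 0.29, 0.98, 1.10, 1.48, 1.71 and 1.88 in the 6 with FOS+ nuclei. Every FOS+ value lay below every FOS- value, which held for 1 of the 41 members with a mean above 0.1 and for 144 of 17248 genes (0.835%). In the 4 mice with both kinds of nuclei FOS+ was lower by 0.51 to 2.38 (mean difference -1.29), from 2.82 to 1.88 in mouse 24, 1.99 to 1.48 in mouse 25, 3.48 to 1.10 in mouse 26 and 2.32 to 0.98 in mouse 27. The FOS- nuclei that detected Lgi3 ranged from 6 of 21 to 9 of 16, and the FOS+ nuclei from 1 of 24 to 6 of 22.

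Summed, Lgi3 was at 64.9 CPM in FOS+ and 198 CPM in FOS- nuclei, a log2 difference of -1.61 (SE 0.53, unadjusted p = 0.0068, adjusted p = 0.26 in edgeR). DESeq2 and limma called it (adjusted p = 0.044 and 0.012). With a replicate block for the mouse edgeR gave -1.06 (adjusted p = 0.67), and in the 4 mice with both alone -0.99 (adjusted p = 0.54). These mice fall into 2 date codes, of which mice 24 and 25 share one and mice 26 and 27 the other, and FOS+ was lower in each of the 4. The remaining FOS+ mice and the remaining FOS- mice had date codes of their own. The GABAergic list ranged from 104 to 493 CPM in FOS+ and 82 to 531 CPM in FOS- sums, so it overlapped, and Slc17a7 from 267 to 521 and from 293 to 494 CPM, which overlapped too. C1ql2, the DG marker, was at 3.67, 3.78, 3.45, 4.43, 4.80 and 2.69 in FOS+ nuclei (mice 15, 16 and 24 to 27) and at 5.42, 6.19, 7.05, 5.86, 4.43 and 7.16 in FOS- nuclei (mice 19, 20 and 24 to 27). It was lower in FOS+ nuclei in 3 of the 4 mice with both, and not in mouse 26. The DG marker list, of which C1ql2 is a part, ranged from 596 to 771 CPM in FOS+ and 545 to 975 CPM in FOS- sums, so it overlapped. The part of C1ql2 in the Lgi3 values was not tested.

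Ptprd, called by limma, ran the other way. Its level was 3.98, 5.44, 5.87, 5.90, 5.91 and 6.05 in FOS+ nuclei and 2.43, 3.01, 3.30, 4.14, 4.17 and 4.45 in FOS- nuclei, so 1 FOS+ mouse overlapped. In the 4 mice with both it was higher in FOS+ nuclei of 3 and lower in mouse 26 (3.98 against 4.45). At 1 h Ptprd was at 4.48 in FOS+ and 7.01 in FOS- nuclei of mouse 3, the opposite order, and the difference between the times was not tested. Cadm2 was higher in FOS+ nuclei of each of the 4 mice with both, at 5.14, 4.90, 2.98 and 4.21 against 3.99, 3.26, 2.40 and 4.17 (159 against 84.8 CPM over all mice, 0.90, SE 0.34, adjusted p = 0.27). Lgi4 was among the 3 members lowest in p only through mouse 25, where 1210 counts came from 1 nucleus, and its levels did not exceed 0.32.

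Within the 4 mice with both, FOS+ was lower in all 4 for 9 of the 41 members (13.7% of genes did so). These were Nlgn1, Lrrtm1, Lrrtm4, Slitrk1, Lrfn5, Lgi3, Cadm3, Clstn1 and Tenm2. FOS+ was higher in all 4 for 3 members, Slitrk2, Cadm2 and Clstn3 (6.71% of genes). Cadm3 had the mean difference of -1.79, from 4.68 to 2.94, 3.15 to 1.76, 5.37 to 2.32 and 4.25 to 3.28 in mice 24 to 27. It fell by 0.97 to 3.04 in these mice, but Cadm3 was not called by edgeR, and over all 6 mice on each side its FOS+ and FOS- values overlapped.

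Exposure to context C gave 2 mice with FOS+ and 2 others with FOS- nuclei, each pair with its own date code, so FOS state and date cannot be told apart. edgeR called 0 of 44 members and 0 of 24405 genes (0%). Unadjusted, 2 members and 1089 genes (4.46%) had p under 0.05. DESeq2 called 1118 genes, among them Flrt1, and limma 83 genes and 0 members. Lgi3 was at 0.66 and 0.44 in FOS+ and 1.67 and 2.17 in FOS- nuclei, again without overlap, as were 14 of 42 members and 31.4% of genes that lay below. Nlgn1 was at 3.77 and 3.38 against 5.88 and 5.83 (209 against 429 CPM, -1.04, SE 0.45, adjusted p = 0.90). Adam23, the LGI receptor, was at 2.84 and 2.39 against 1.71 and 2.14 (63.6 against 12.6 CPM, 2.34, SE 1.16, adjusted p = 0.90). Flrt1 rested on mouse 13, with 27.1 CPM and a level of 0.40, while the other 3 mice had levels of 0.01 to 0.04, and without that mouse the sign of the fitted difference turned.

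C1ql2, 1 of the DG markers, was at 2.67 and 2.80 in FOS+ and 5.02 and 4.23 in FOS- nuclei of A>C. Prox1 did not go with it, at 661 and 561 CPM in FOS+ and 596 and 407 CPM in FOS- nuclei. The DG marker list summed to 779 and 685 against 812 and 692 CPM, which overlapped. The GABAergic list was at 406 and 354 CPM in FOS+ against 187 and 185 CPM in FOS- nuclei. Slc17a7 was at 380 and 312 CPM in FOS+ and 708 and 619 CPM in FOS- nuclei, without overlap. Their part in the A>C values was not tested.

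The FOS+ and FOS- nuclei of CA1 and VIP at 1 h were then compared. In CA1 (3 mice, all with both) edgeR called 0 of 41 members and 0 of 14507 genes (0%), and unadjusted 2 members and 629 genes (4.34%) had p under 0.05. In VIP (2 mice with FOS+, 3 with FOS-) it called 0 of 43 members and 0 of 14736 genes (0%), and unadjusted 2 members and 713 genes (4.84%) had p under 0.05. DESeq2 called 220 and 173 genes, limma 0 in each, and neither tool called a member. The median over the members was 0.07 in both. Its sign turned in CA1 in limma (-0.01), without the Arc filter and with the mouse block. In VIP it turned with DESeq2's size factors (-0.05), with sums of 5 nuclei and without the sum that lacked Vip (-0.16 in each). That FOS- sum held 2 nuclei of mouse 2.

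The member lowest in p in CA1 was Slitrk2, at 1.47, 0.76 and 3.70 in FOS+ and 0.63, 1.26 and 0.90 in FOS- nuclei of mice 2, 4 and 10, where mouse 4 ran against the others (64.0 against 8.07 CPM, 2.98, SE 1.14). Flrt2, the latrophilin and UNC5 ligand, was higher in FOS+ nuclei of each mouse, at 3.61, 1.48 and 3.65 against 1.80, 0.99 and 1.68 (161 against 33.1 CPM, 2.28, SE 0.92). Nrxn3 was at 6.42, 8.80 and 7.68 against 7.16, 4.53 and 8.25, higher in 1 of 3 mice (885 against 373 CPM, 1.25, SE 0.55). That was mouse 4, whose FOS+ sum went against its CA1 label, and without it the Nrxn3 difference was 0.21. All 3 had an adjusted p of 1.

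In VIP nuclei Slitrk5 was at 1.27 and 2.17 in FOS+ and 0.24, 1.14 and 0.86 in FOS- sums (91.7 against 7.53 CPM, 3.60, SE 1.38, adjusted p = 0.97). Cadm2 was at 3.78 and 3.23 against 7.50, 4.46 and 5.73 (111 against 458 CPM, -2.05, SE 0.79, adjusted p = 0.97). The FOS- values here include the sum that lacked Vip. FOS+ mice lay above FOS- mice in 3 of 43 members and 11.9% of genes, and below in 3 members and 5.26% of genes. Cadm4 was at 0.33 and 0.26 against 1.93, 1.20 and 0.00 (adjusted p = 1). Nrxn3 stayed at its VIP level, at 11.45 and 10.96 in FOS+ against 11.42, 10.88 and 11.04 in FOS- sums.

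In CA1 and VIP, Lgi3 did not separate FOS+ from FOS- nuclei. It was at 1.11, 0.73 and 1.27 in FOS+ and 1.13, 1.92 and 0.00 in FOS- nuclei of CA1, and at 0.13 and 2.30 against 1.22, 2.64 and 1.65 in VIP. In the test of the difference itself (FOS+ minus FOS- in DG against that in CA1, and against that in VIP) Lgi3 had an adjusted p of 1 in both, where edgeR called 1 of 21851 genes in each (0.00458%) and 0 of 44 members. The members lowest in p in that test were Flrt2, Lgi3 and Nrxn3 against CA1, and Flrt2, Lgi3 and Tenm4 against VIP. Flrt2 in DG had 2583 counts in 3 of 27 FOS- nuclei and 0 counts in 26 FOS+ nuclei. DESeq2 called Flrt2 and Lgi3 in both tests, where it called 371 and 524 genes (1.70% and 2.40%), and limma called 0 members. DG is represented by 1 mouse in both tests.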

How the data were processed

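Quantities for an Ensembl annotation of mm10 came from RSEM with Bowtie, which the authors ran after trimming with Solexa-QA++. They deposited expected counts per gene and nucleus, which are all whole numbers, and log2(TPM+1) values, and both were used as deposited. Genes without a value (30 in the count tables, 23 in the log2 tables) were left out. Reads include PCR copies, so intervals and floors of counts cover the counting error of reads only, not that of RNA molecules.

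Nuclei were kept at 100000 aligned reads and 4000 genes. An animal was defined by exposure, date code and mouse number in the first cohort and by exposure and mouse number in the later one. Counts were summed per animal, cell type and FOS state over at least 2 nuclei, and held 777084 to 122269314 counts each. They entered edgeR 4.0.16 under R 4.3.3 (TMM, filterByExpr, glmQLFTest, Benjamini-Hochberg adjustment over all genes tested, threshold 0.05). One fit covered 5 cell types with the exposure as a covariate, 1 all DG groups, 1 CA1, 1 VIP and 1 the difference of differences. The common dispersion was 2.29 over the cell types and 1.95 in DG. The scripts were tested on simulated data whose dispersion was set far below these values. That test therefore does not show how many changes are found or falsely called at the spread of these data.

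The members, the partner list and the tests were chosen with earlier results of these data known. In each comparison the text names the members past the threshold and, where fewer than 3 passed, the members of lowest p up to 3, and it describes the 4 members of highest level in DG, CA1 and VIP and those under 0.5 in each type. Other members named were chosen after their values were seen. Partners are named where they passed. The values of 1 further marker gene are not reported here. Positions are those of GENCODE on GRCm38, the assembly named mm10.

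By the labels, some FOS+ and FOS- sums share an animal. The mean correlation of their deviations from the group means was 0.042 in A>A (4 pairs), 0.049 in CA1 (3) and 0.015 in VIP (2), against -0.005, -0.024 and -0.007 for different animals. A mouse block was an alternative. Others were DESeq2 1.42.0, its size factors in edgeR, limma 3.58.1 on the per-mouse levels, no filter on low counts, other thresholds for nuclei, sums of 5 nuclei, the sorting gate and leaving out each mouse. Leaving out the VIP sums that lack Vip was added after the data were seen.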

Additional observations from a re-analysis of the deposited data

Results flagged for a closer look

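Lgi4 stood apart from the rest of its group 3 times among 39 sets of a member and a group of 4 or 6 mice that were examined, where chance flags about 1 in 20 sets. In DG nuclei at 5 h mouse 8 had a mean log2(TPM+1) of 0.0300 and the other 3 mice had 0. In A>A FOS+ nuclei mouse 25 had 0.324 and the others 0 to 0.0547, and in A>A FOS- nuclei mouse 24 had 0.135 and the others 0. In the 5 h and the FOS- group all other mice were at 0, so any value above 0 stands apart by construction and the rate of 1 in 20 does not apply to them. All of these levels are means over nuclei, so the detection value for single nuclei does not apply to them.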

How the results depend on the processing

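Counts of called members changed as follows. For DG against CA1 (1 in the main test) DESeq2 called 3 (Flrt1, Tenm3, Tenm4) and no filter, sums of 5 nuclei and the sorting gate 0. For VIP against CA1 (1) DESeq2 called 2 (Cadm2, Nrxn3), limma 2 (Nrxn3, Tenm4) and the gate 0. For DG against VIP (2) DESeq2 called 5, and size factors, no filter, all nuclei, sums of 5 nuclei and the gate 1 each. Over all genes DESeq2 called 404 (2.42%), 1033 (6.18%) and 958 (5.73%) in these comparisons, and limma 107 (0.542%), 278 (1.41%) and 260 (1.32%). The gate, without the nuclei negative for both PROX1 and CTIP2, called 1, 0 and 42 of 17704 genes. For CA3 against CA1 (0) DESeq2 and limma called 1 each. For 1 h FOS+ against FOS- (1) DESeq2 called 3 (Flrt2, Lgi3, Tenm2, where it called 4.30% of genes), and limma, the mouse as a replicate block and the HC and 1 h groups alone 0. For 1 h FOS+ against HC (1) DESeq2 and limma called 2 each (7.28% and 3.19% of genes) and the HC and 1 h groups alone 0. At 4 h (0) limma called 4 (Adam22, Clstn1, Il1rap, Lrrtm2), at 5 h (0) DESeq2 4 (Nlgn1, Nlgn2, Nrxn2, Ptprf) and limma 12, in A>A (0) DESeq2 and limma 2 each, in A>C (0) DESeq2 1, and in both differences of differences (0) DESeq2 2.

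Without single mice the counts ran from 0 to 1 for DG against CA1 and VIP against CA1, from 0 to 2 for DG against VIP, from 1 to 1 for 1 h FOS+ against HC and stayed at 0 in the other comparisons where a mouse could be left out. Over all genes the calls then ran from 13 to 28, 57 to 94 and 54 to 95 in the comparisons of DG with CA1, VIP with CA1 and DG with VIP, lowest without HC mouse 7, 1 h mouse 10 and 1 h mouse 3. Nrxn3 lost its call against CA1 without 1 h mouse 2, 1 h mouse 10 or HC mouse 4 (the one with oligodendrocyte markers), and against VIP, in DG, without 1 h mouse 3 or HC mouse 6 or 7. The sign turned for Nlgn1 at 5 h in limma (-0.31) and for Flrt1 in A>C, whose log2 difference ran from -0.57 without mouse 13 to 8.33 without mouse 14. The cause of these changes was not tested. With the mouse block no other call of a member changed. The genes called went from 10 to 0 in A>A and from 2 to 0 in Sub against CA1, in fits that tested another set of genes. In A>A they were also 0 without a block, in the mice with both FOS groups alone. Leaving out mice kept 225 of 272 values on the same side of the threshold and the other settings 386 of 427. Most of these values belong to genes not called in the main test, which count as kept when they stay uncalled. These shares are therefore not a measure of how stable the calls were. Leaving out mice lost a call in 46 values, and the other settings lost a call in 26 and gained one in 14. At 4 h the median of all genes was 0.23 with TMM and 0.00 with size factors, so differences there are read against that shift. The member median at 4 h turned from 0.17 to -0.17 with size factors and -0.30 in limma. Over the settings other than leaving out single mice, the member median ran from -0.73 to -0.20 for 1 h FOS+ against FOS-, -0.55 to -0.26 for FOS+ and 0.16 to 0.38 for FOS- against HC, -0.60 to -0.24 at 5 h and -0.27 to -0.05 in A>A. The lone 1 h DG mouse could not be left out of the 1 h FOS comparisons in DG, and the gate gives no CA3 or Sub values.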
